A study of Mus musculus with 16 samples.

Results

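Transcript levels of 9 podocyte genes, *Nphs1*, *Podxl*, *Wt1*, *Synpo*, *Magi2*, *Ptpro*, *Cdkn1c*, *Kirrel* and *Plce1*, were examined in aged mice given a hairpin against *Fos*. They were chosen by name as genes known from podocytes, with earlier results of these data known. They are 9 of the 24984 genes in the count tables. All 16 libraries were used, with kidney as the main tissue and liver, an organ without podocytes, as background. The libraries came from wild-type (WT) C57BL/6 mice, labelled 24 months old. Per the study's methods the mice were female and received AAV8, an adeno-associated virus vector, intravenously at that age, and the organs were collected 3 months later. The vector expressed a short hairpin RNA against *Fos* (shFOS) or a non-targeting hairpin (shNT), so the controls carried a vector too. Each tissue had 4 shNT and 4 shFOS libraries. The comparison asked what lowering *Fos*, a subunit of the AP-1 transcription factor, does in aged organs. The sources used here do not give the promoter of the hairpin or which kidney cells took up the vector. They also do not say whether a replicate number marks the same animal in both tissues, so p-values measure the spread between these libraries.

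Podocytes are the epithelial cells that wrap the capillaries of the glomerulus, the filter of the kidney. Their interlocking foot processes are bridged by the slit diaphragm, built from nephrin (*Nphs1*) and the related adhesion protein Neph1 (*Kirrel*) and held by scaffold proteins such as *Magi2*. Podocalyxin (*Podxl*) is the negatively charged sialomucin of the apical surface, *Ptpro* encodes the receptor tyrosine phosphatase GLEPP1, and synaptopodin (*Synpo*) binds the actin bundles of the foot processes. *Plce1* encodes a phospholipase C whose loss causes nephrotic syndrome, *Wt1* a transcription factor of the podocyte lineage, and *Cdkn1c* the cell cycle inhibitor p57, which mature podocytes keep. Podocytes are a small share of the cells of a whole kidney. In whole-organ RNA a change in the number of such cells and a change in RNA per cell cannot be told apart.

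Kidney libraries held 14194543 to 15534665 counted reads and liver libraries 16652150 to 18300277. A count of 0 allows up to 3 reads, or 0.164 to 0.211 CPM (read counts scaled to the library size), which covers counting error only. In kidney the lowest count of any of the 9 genes was 136 reads, for *Plce1*, and the highest was 5832, for *Podxl*. The targeted gene, *Fos*, stood at 6.71, 5.26, 4.23 and 5.29 CPM in shNT kidneys 1 to 4 and at 2.57, 4.12, 3.93 and 2.30 CPM in shFOS kidneys 1 to 4. Every shFOS kidney was below every shNT kidney (log2 fold change -0.73, SE 0.25, edgeR adjusted p = 0.0955). In liver *Fos* averaged 2.51 ± 1.08 CPM (SD, n = 4) in shNT and 1.82 ± 0.637 CPM (SD, n = 4) in shFOS, and the groups overlapped (adjusted p = 0.778). Some libraries stood apart from their group over all genes. When counts were compared in pairs (chi-square divided by its degrees of freedom), kidney shNT replicate 4 gave 63.6 to 67.7 with the other shNT kidneys, which gave 7.17 to 13.0 with each other. Liver shNT replicate 4 gave 334 to 431 with the other shNT livers, which gave 40.7 to 60.2. By the same measure kidney shFOS replicate 1 gave 27.35 to 58.55 with the other shFOS kidneys. Those gave 21.98 to 48.51 with each other, so the 2 ranges overlapped.

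Promoter sequences from RefSeq on GRCm38.p6 (250 bases before to 50 bases after the annotated start) were matched for 5 of the 9 genes by symbol: *Nphs1*, *Magi2* (which has 2 windows), *Ptpro*, *Kirrel* and *Plce1*. They were searched on both strands for the AP-1 letters TGACTCA (whose reverse complement is TGAGTCA), because *Fos* is an AP-1 subunit, for GCGTGGG, a core shared by EGR and WT1 motifs, and for TAATTA, a homeodomain core. Among 32851 promoter windows, 5.20% held the AP-1 letters, 5.04% held GCGTGGG and 5.29% held TAATTA. Of the 6 windows of podocyte genes, none held the AP-1 letters, 1 *Magi2* window held GCGTGGG and the other *Magi2* window held TAATTA. Shown are *Nphs1* and *Ptpro*, which had the largest fold changes in kidney, *Kirrel*, which had the smallest, and the *Magi2* window with GCGTGGG, whose match (on the reverse strand) is in capitals. They lie at chr7:30459808-30460107 (+ strand, *Nphs1*), chr6:137252049-137252348 (+ strand, *Ptpro*), chr3:87174488-87174787 (- strand, *Kirrel*) and chr5:19226796-19227095 (+ strand, *Magi2*), and each is written 5′ to 3′ on the strand of its gene. The RefSeq starts of *Nphs1*, *Kirrel*, *Plce1* and both windows of *Magi2* lie inside the genes as GENCODE M21 draws them. That of *Ptpro* lies just before its gene.
Nphs1: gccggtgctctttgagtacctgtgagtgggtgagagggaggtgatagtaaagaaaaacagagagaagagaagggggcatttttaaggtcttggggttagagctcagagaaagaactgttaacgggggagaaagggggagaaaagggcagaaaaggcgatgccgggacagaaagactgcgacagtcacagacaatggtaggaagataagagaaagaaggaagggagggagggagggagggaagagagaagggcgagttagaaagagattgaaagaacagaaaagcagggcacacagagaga
Ptpro: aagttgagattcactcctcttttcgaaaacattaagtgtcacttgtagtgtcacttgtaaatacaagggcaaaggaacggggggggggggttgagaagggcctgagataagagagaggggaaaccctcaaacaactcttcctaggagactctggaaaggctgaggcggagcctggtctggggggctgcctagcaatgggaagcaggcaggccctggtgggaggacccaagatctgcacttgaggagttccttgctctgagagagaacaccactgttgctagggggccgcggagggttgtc
Kirrel: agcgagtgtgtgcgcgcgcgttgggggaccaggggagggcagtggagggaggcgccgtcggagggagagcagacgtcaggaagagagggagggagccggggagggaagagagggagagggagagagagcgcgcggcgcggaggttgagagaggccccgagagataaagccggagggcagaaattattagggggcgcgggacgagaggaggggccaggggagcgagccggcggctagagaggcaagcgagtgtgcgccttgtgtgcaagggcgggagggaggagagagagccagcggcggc
Magi2: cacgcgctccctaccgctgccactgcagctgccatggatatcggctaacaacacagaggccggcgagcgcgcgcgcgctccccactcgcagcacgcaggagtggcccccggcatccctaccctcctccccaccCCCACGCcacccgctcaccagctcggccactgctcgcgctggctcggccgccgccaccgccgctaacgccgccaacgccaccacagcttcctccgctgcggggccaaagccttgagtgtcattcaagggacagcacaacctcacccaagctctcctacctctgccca
The G and C content of these windows was 49.7% for *Nphs1*, 54.7% for *Ptpro*, 69.3% for *Kirrel* and 69.3% for *Magi2*.

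In kidney all 9 podocyte genes had a higher mean in shFOS than in shNT, by 1.19-fold (*Kirrel*) to 1.92-fold (*Nphs1*). The difference was carried by 3 of the 4 shFOS libraries. Replicates 2, 3 and 4 lay above every shNT library in 8 of the 9 genes, whereas shFOS replicate 1 lay within the shNT range in all 9. With all 8 libraries none of the 9 genes passed an adjusted p of 0.05 in edgeR, and neither did any other of the 14892 genes tested (0% called), although 4747 genes had an unadjusted p under 0.05 and DESeq2 called 2693. At an unadjusted p under 0.05, 7 of the 9 were higher, against 17.1% of all genes tested. Their median log2 fold change was 0.70, against 0.00 over all genes tested. Both comparisons are descriptions, because the 9 genes were chosen with earlier results of these data known.

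**Figure D1:**
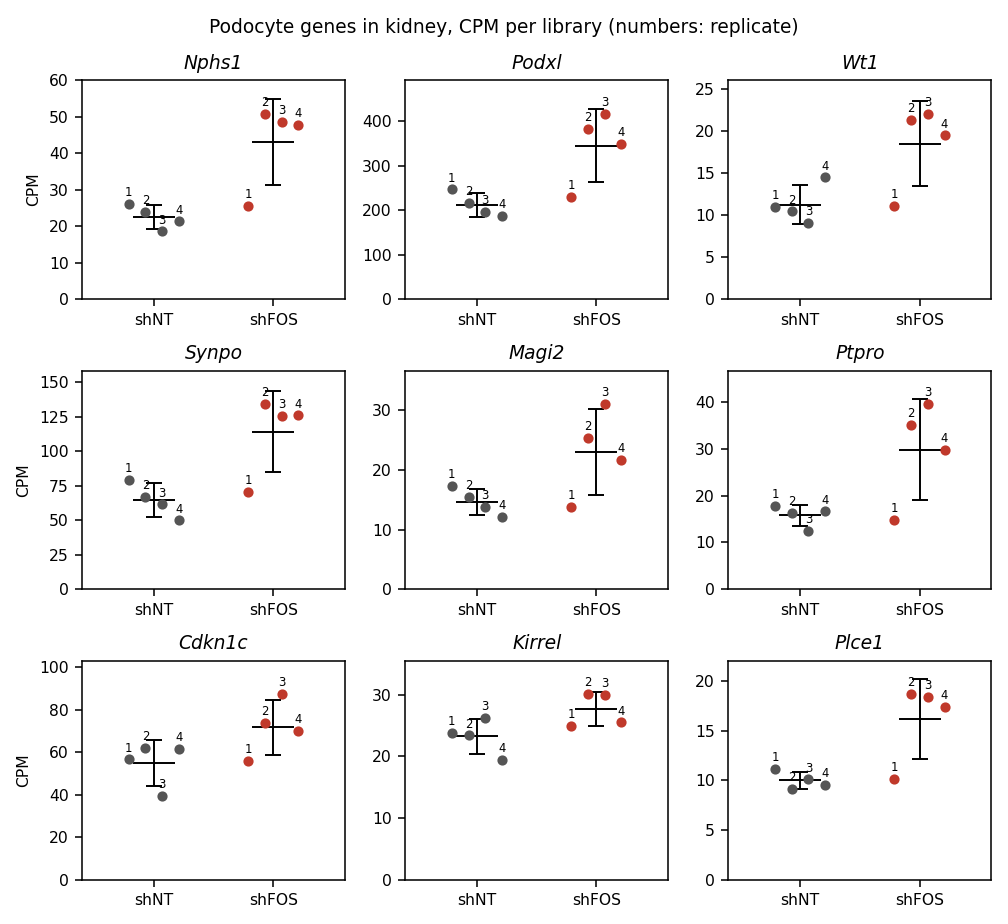
CPM of each podocyte gene (vertical axes, starting at 0) in the 8 kidney libraries, with shNT in grey, shFOS in red, the replicate number above each point and the mean ± SD (n = 4) in black. In every panel shFOS replicate 1 sits among the shNT points, and in 8 of 9 panels the other 3 shFOS points sit above all shNT points.

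The slit diaphragm genes differed in size. *Nphs1* (ENSMUSG00000006649.17, mm10 chromosome 7, 30458315 to 30487223, + strand) stood at 26.0, 24.0, 18.6 and 21.3 CPM in shNT kidneys 1 to 4 and at 25.6, 50.9, 48.6 and 47.7 CPM in shFOS kidneys 1 to 4. The first shFOS library was just below the highest shNT library and the other 3 were well above, so the groups overlapped through 1 library. The log2 fold change was 0.94 (SE 0.21, edgeR adjusted p = 0.066). *Magi2* (ENSMUSG00000040003.18, chromosome 5, 19227036 to 20704792, + strand), the scaffold, was at 17.3, 15.4, 13.8 and 12.2 CPM in shNT and at 13.8, 25.4, 31.0 and 21.7 CPM in shFOS, with the same library low (log2 fold change 0.64, SE 0.23, edgeR adjusted p = 0.101). *Kirrel* (ENSMUSG00000041734.15, chromosome 3, 87078593 to 87174747, - strand) was at 23.7, 23.4, 26.3 and 19.5 CPM in shNT and at 24.9, 30.1, 30.0 and 25.5 CPM in shFOS. Here 2 of the 4 shFOS libraries, replicates 1 and 4, were inside the shNT range, and the log2 fold change was 0.25 (SE 0.12, edgeR adjusted p = 0.172). *Kirrel* is the partner of nephrin in the slit diaphragm and had the smallest difference of the 9, at the 76.4th percentile of all fold changes, while *Nphs1* was at the 98.4th. Reads were counted without strand, and *Nphs1*, *Kirrel*, *Cdkn1c*, *Plce1* and *Magi2* overlap annotated genes on the opposite strand, so reads in the overlaps may be missing or may come from those genes.

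The apical surface genes came next. *Podxl* (ENSMUSG00000025608.9, chromosome 6, 31519488 to 31563981, - strand), podocalyxin, had the most CPM of the 9. Its values were 246.9, 216.5, 196.5 and 186.5 CPM in shNT and 229.2, 383.6, 417.1 and 349.7 CPM in shFOS (log2 fold change 0.70, SE 0.18, edgeR adjusted p = 0.066). Its shFOS replicates 2 to 4 were all above the highest shNT kidney, and replicate 1 was below it. *Ptpro* (ENSMUSG00000030223.14, chromosome 6, 137252319 to 137463233, + strand), the phosphatase of the foot process surface, was at 17.7, 16.3, 12.5 and 16.6 CPM in shNT and at 14.8, 35.1, 39.6 and 29.7 CPM in shFOS. Its first shFOS library fell below 3 of the 4 shNT libraries, and the log2 fold change was 0.91 (SE 0.27, edgeR adjusted p = 0.0745). *Podxl* is also made by endothelial cells, so it does not mark podocytes alone.

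Among the genes of the foot process interior, *Synpo* (ENSMUSG00000043079.17, chromosome 18, 60593973 to 60660142, - strand) was at 79.5, 67.1, 61.6 and 49.9 CPM in shNT and at 70.4, 134.4, 125.8 and 126.1 CPM in shFOS. The 3 high shFOS libraries lay close together and the low library lay inside the shNT range (log2 fold change 0.82, SE 0.21, edgeR adjusted p = 0.066). *Plce1* (ENSMUSG00000024998.17, chromosome 19, 38481109 to 38785030, + strand), the phospholipase, was at 11.2, 9.17, 10.1 and 9.54 CPM in shNT and at 10.2, 18.7, 18.4 and 17.4 CPM in shFOS. Its replicates were tight apart from shFOS replicate 1, with an SD of 0.875 CPM among the 4 shNT libraries, and the log2 fold change was 0.69 (SE 0.19, edgeR adjusted p = 0.0696).

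Both nuclear genes had a higher mean in shFOS, and their difference in size was not tested. *Wt1* (ENSMUSG00000016458.14, chromosome 2, 105126529 to 105173616, + strand), the transcription factor, was at 10.98, 10.4, 9.05 and 14.5 CPM in shNT and at 11.1, 21.4, 22.1 and 19.5 CPM in shFOS (log2 fold change 0.72, SE 0.23, edgeR adjusted p = 0.0824). It was the gene for which shNT replicate 4 was the highest control, where *Podxl*, *Synpo*, *Magi2* and *Kirrel* had that library lowest. *Cdkn1c* (ENSMUSG00000037664.13, chromosome 7, 143458339 to 143461050, - strand), the cell cycle inhibitor, was at 56.6, 62.0, 39.3 and 61.6 CPM in shNT and at 55.8, 73.7, 87.3 and 70.0 CPM in shFOS. The gap between its highest shNT library and the lowest of shFOS replicates 2 to 4 was small beside the 39.3 CPM of shNT replicate 3, and the log2 fold change was 0.39 (SE 0.17, edgeR adjusted p = 0.16).

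Set against the shNT mean gene by gene, the libraries formed a plain pattern. The median log2 ratio over the 9 genes was 0.17, 0.05, -0.11 and -0.08 in shNT kidneys 1 to 4, 0.03 in shFOS kidney 1, and 0.90, 0.97 and 0.79 in shFOS kidneys 2 to 4. In ratio terms shFOS kidney 1 was at 1.02 times the shNT mean, and the other 3 were at 1.87, 1.97 and 1.73 times. shFOS replicate 1 ranked between 2 and 4 of the 8 kidneys in every one of the 9 genes, although its *Fos* level, 2.57 CPM, was the second lowest of the 8. Of all 14892 genes tested, 9.16% had every shFOS library above every shNT library, and 0 of the 9 podocyte genes did. Without shFOS replicate 1 the same was true of 22% of genes and of 8 of the 9, the exception being *Kirrel*. Only that library was left out for this count, and it was picked by its values in the 9 genes, so the count is a description.

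**Figure D2:**
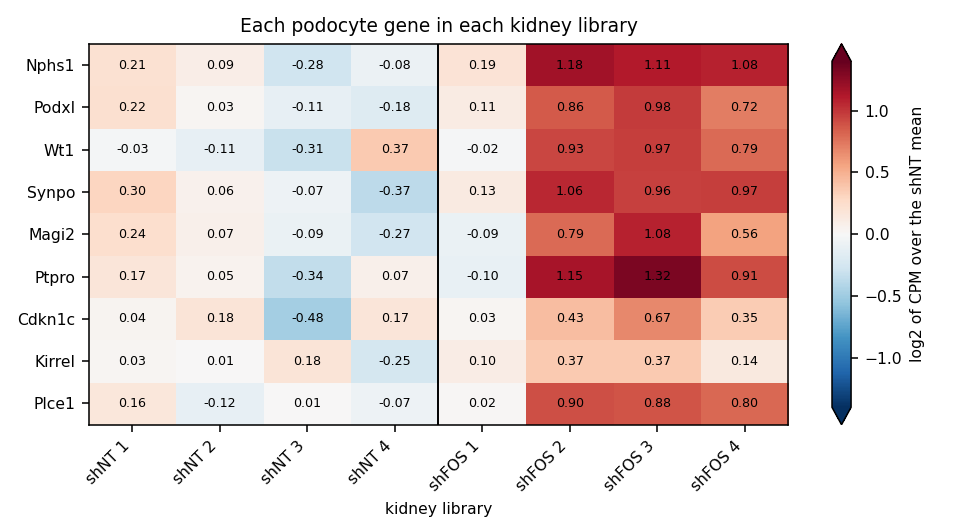
Log2 of each kidney library's CPM over the mean of the 4 shNT kidneys (colour and printed number) for the 9 podocyte genes (rows) in the 8 kidney libraries (columns). The column of shFOS 1 runs from -0.10 to 0.19, while the columns of shFOS 2 to 4 are positive in all rows and weakest for *Kirrel*, at 0.37, 0.37 and 0.14.

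What passed the test therefore depended on that library and on the tool. With shFOS replicate 1 left out, 7 of the 9 rose at an adjusted p under 0.05 in edgeR, against 12.5% of the genes tested. *Nphs1* then had a log2 fold change of 1.09 (SE 0.12, edgeR adjusted p = 0.00113) and *Ptpro* one of 1.10 (SE 0.15, edgeR adjusted p = 0.0022). *Cdkn1c* and *Kirrel* did not pass, with edgeR adjusted p of 0.075 and 0.14. On all 8 libraries DESeq2 called the same 7 genes, with adjusted p from 0.00212 (*Nphs1*) to 0.0468 (*Magi2*), against 11.4% of genes called higher. An edgeR fit of all 16 libraries called 4 of them in kidney, *Nphs1*, *Podxl*, *Synpo* and *Plce1*, against 3.86% of genes. Leaving out shFOS replicate 1 and shNT replicate 4 together, an alternative chosen after the data were seen, gave 8 of 9, against 16.4% of genes, with *Cdkn1c* at an edgeR adjusted p of 0.0495 and *Kirrel* at 0.188. With any other single kidney library left out, none of the 9 passed. Without shNT replicate 4 their log2 fold changes were 0.18 (*Kirrel*) to 0.94 (*Ptpro*). Across all 17 alternatives in kidney every one of the 9 genes stayed higher in shFOS. With an offset for GC content *Cdkn1c* had a log2 fold change of 0.65 (edgeR adjusted p = 0.1003).

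**Figure D3:**
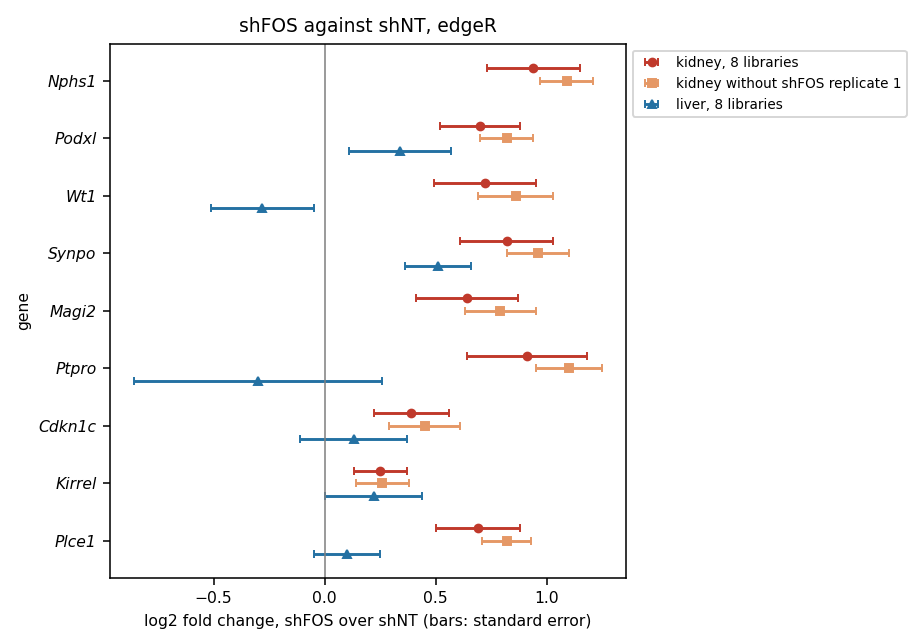
Log2 fold change of shFOS over shNT from edgeR with its standard error (horizontal axis) for each podocyte gene (rows), in 8 kidney libraries (red circles), in 7 kidney libraries without shFOS replicate 1 (orange squares) and in 8 liver libraries (blue triangles). The kidney points are all above 0, from 0.25 for *Kirrel* to 0.94 for *Nphs1*, and liver points, missing for *Nphs1* and *Magi2*, lie on both sides of 0.

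The fold changes of the 9 genes differed in size, and whether they differed beyond their error was not tested. Relative to the mean log2 CPM of the other 8 in the same library, *Nphs1* went from -0.35 ± 0.09 (SD, n = 4) in shNT to -0.06 ± 0.13 (SD, n = 4) in shFOS. *Kirrel* went the other way, from -0.29 ± 0.26 to -0.73 ± 0.34, and *Cdkn1c* from 1.09 ± 0.28 to 0.80 ± 0.20, both with overlapping groups. *Podxl* (3.30 and 3.33), *Wt1* (-1.48 and -1.43) and *Plce1* (-1.65 and -1.64) kept nearly the same place among the 9 in both groups. Within groups, with each gene centred on its group mean over the 8 kidney libraries, the 36 pairs of genes had a median Pearson correlation of 0.80, from -0.10 (*Cdkn1c* with *Kirrel*) to 0.98 (*Podxl* with *Magi2*). These correlations are descriptions over 8 libraries, among which shFOS replicate 1 lay far from its group. The 5 other genes most like the 9 by the median of the same measure were *Pcdhb16*, *Trip11*, *Ccn2*, *Anp32e* and *Rab42*, each at 0.93. *Ccn2* (connective tissue growth factor), for example, averaged 126 CPM in shNT and 203 CPM in shFOS, with 133 CPM in shFOS replicate 1.

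Other genes of the podocyte gave a mixed picture, and none passed an adjusted p of 0.05 in the edgeR fit of 8 kidneys. DESeq2 on the same libraries called 11.4% of 13681 genes higher, and 2693 genes in either direction. It called 5 of 18 slit diaphragm partners higher, and of 20 cytoskeleton and adhesion genes 4 higher and 1 lower. It called 9 of 16 other podocyte-enriched genes higher and 2 of 10 transcription factors lower. Of 11 basement membrane genes it called 1 higher and 1 lower. Over all genes tested in edgeR, 17.1% were higher and 14.8% lower at an unadjusted p under 0.05, with a median of 0.00. Of 18 slit diaphragm partners, 16 were tested, and 7 were higher and 1 lower at an unadjusted p under 0.05, with a median log2 fold change of 0.22. *Tjp1* (ZO-1, a junction scaffold made in many epithelia) averaged 67.1 ± 4.37 CPM in shNT and 97.8 ± 13.6 CPM in shFOS (SD, n = 4), and its groups did not overlap. Of all kidney genes tested, 9.16% had every shFOS library above every shNT library. *Pard3* (a polarity protein) averaged 46.5 ± 5.09 and 57.8 ± 3.29 CPM (SD, n = 4). *Tjp1* and *Pard3* are not particular to podocytes, and in both shFOS replicate 1 was above every shNT kidney, at 81.3 and 54.9 CPM.

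Of 20 genes of the podocyte cytoskeleton and adhesion, 5 were higher and 1 lower at an unadjusted p under 0.05, with a median log2 fold change of 0.13. *Dag1* (dystroglycan) had 182 ± 9.96 and 252 ± 25.9 CPM and *Itgb1* (integrin beta 1) had 325 ± 21.5 and 448 ± 42.1 CPM in shNT and shFOS (SD, n = 4), both without overlap. Of 16 other podocyte-enriched genes, 10 were higher and 1 lower, with a median of 0.27. *Enpep* (aminopeptidase A, also abundant in proximal tubule) averaged 71.5 ± 12.9 and 154 ± 46.2 CPM and *Thsd7a* 12.0 ± 1.61 and 22.3 ± 5.76 CPM (SD, n = 4). At an edgeR adjusted p under 0.05 without shFOS replicate 1, 12.5% of all genes tested were called higher, and 4126 genes in either direction. The slit diaphragm partners then had 3 higher, and the cytoskeleton list 5 higher and 1 lower. The other podocyte-enriched genes had 7 higher and 1 lower. In the same fit the basement membrane list had 2 higher and 3 lower. The transcription factors had 0 higher and 2 lower, and paralogs of the 9 genes had 3 higher and 5 lower.

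The transcription factors and the basement membrane had fewer genes higher than the 9 podocyte genes did, a difference that was not tested. Of 10 podocyte transcription factors, none was higher and 2 were lower at an unadjusted p under 0.05, with a median log2 fold change of 0.09. *Foxc1* averaged 33.6 ± 2.46 and 23.5 ± 5.24 CPM (SD, n = 4; log2 fold change -0.52, edgeR adjusted p = 0.0761) and *Nfia* 70.4 ± 7.35 and 50.6 ± 10.5 CPM (SD, n = 4; -0.47, edgeR adjusted p = 0.0764), and both are also made by other kidney cells. *Lmx1b*, defining for podocytes but counted by only 2 to 18 reads per kidney, was at 0.789, 0.539, 0.130 and 0.322 CPM in shNT and 0.450, 1.20, 0.787 and 0.845 CPM in shFOS (log2 fold change 0.87, SE 0.52, edgeR adjusted p = 0.276), with shFOS replicate 1 inside the shNT range. Of 11 genes of the glomerular basement membrane, 3 were higher and 1 lower, with a median of 0.24. The per-library median of this list was highest in shFOS replicate 1, at 0.36 on the log2 scale, against 0.04, 0.00 and 0.16 in shFOS replicates 2 to 4. *Lamc1* averaged 65.1 ± 1.21 and 81.1 ± 5.46 CPM and *Nid2* 27.2 ± 3.14 and 34.6 ± 3.89 CPM (SD, n = 4). Of 23 paralogs of the 9 genes, 21 were tested, and 4 were higher and 4 lower, with a median of -0.21. *Ptprb* (an endothelial receptor phosphatase) averaged 72.3 ± 6.83 and 92.0 ± 4.0 CPM and *Plcb1* 22.3 ± 5.98 and 41.1 ± 11.7 CPM (SD, n = 4).

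**Figure D4:**
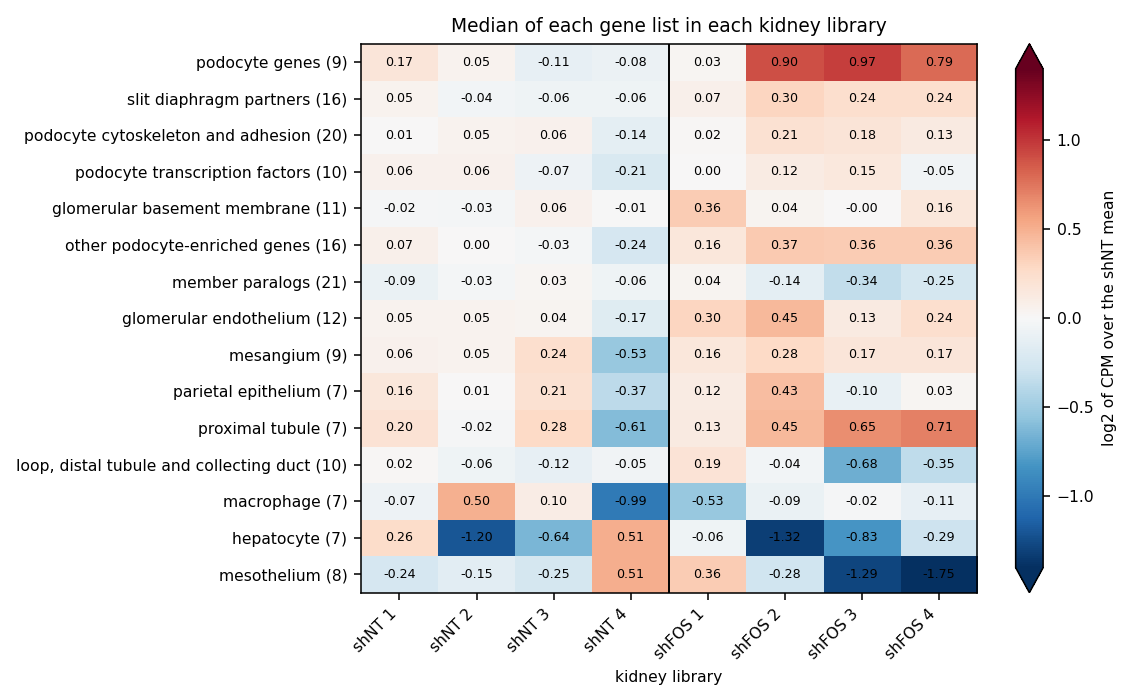
Median over each gene list (rows, number of tested genes in brackets) of the log2 ratio of a kidney library's CPM to the shNT mean, with 0.1 CPM added to both, for the 8 kidney libraries (columns), with colours clipped at the ends of the scale. The podocyte genes reach 0.79 to 0.97 in shFOS 2 to 4, the proximal tubule list reaches 0.45 to 0.71 there, and the mesothelium list stands at -1.29 and -1.75 in shFOS 3 and 4.

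Markers of other kidney cells differed between libraries too, and their part in the result was not tested. Of all kidney genes tested, 17.1% were higher and 14.8% lower at an unadjusted p under 0.05 in edgeR. Several of the lists below lay near those shares. For the rest of the glomerulus, 7 of 12 glomerular endothelial genes were higher and 0 lower at an unadjusted p under 0.05 (median 0.31), and their summed level was 770 to 881 CPM in shNT and 858 to 1068 CPM in shFOS, highest in shFOS replicate 1. *Plat* (tissue plasminogen activator) averaged 63.9 ± 7.77 and 99.7 ± 9.57 CPM (SD, n = 4), with 105 CPM in shFOS replicate 1, and *Plvap*, the most abundant of the list, averaged 271 ± 31.0 and 237 ± 61.1 CPM. Of 10 mesangial genes, 9 were tested and 2 were higher (median 0.10). Their summed level was 922 to 1325 CPM in shNT and 947 to 1199 CPM in shFOS. *Ren1*, of the same list, was at 0 CPM in every kidney library. That 0 may reflect how reads were assigned to genes, which was not tested, and is not given as absence of the transcript. *Itga8* averaged 15.0 ± 4.76 and 27.4 ± 6.40 CPM and *Igfbp5* 797 ± 155 and 718 ± 128 CPM (SD, n = 4). Of 7 parietal epithelial genes 1 was higher, *Cldn1*, at 35.2 ± 7.94 and 56.3 ± 10.3 CPM, while *Pax8* was at 131 ± 19.6 and 121 ± 16.8 CPM (SD, n = 4), and the summed level was 330 to 359 CPM in shNT and 331 to 414 CPM in shFOS.

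All 7 proximal tubule genes had a higher mean in shFOS, where 50.3% of all kidney genes tested had a positive fold change. At an unadjusted p under 0.05, 3 of the 7 were higher (median 0.60), against 17.1% of all genes higher and 14.8% lower. Their summed level was 4464 to 8404 CPM in shNT and 8158 to 11341 CPM in shFOS, with 8158 CPM in replicate 1. shNT replicate 4, which stood apart, had the lowest list median of the 4 shNT kidneys on the log2 scale for proximal tubule (-0.61), mesangium (-0.53) and macrophage (-0.99) genes. *Lrp2* (megalin) averaged 1906 ± 617 and 3276 ± 502 CPM and *Slc34a1* (a phosphate transporter) 2958 ± 865 and 4038 ± 594 CPM (SD, n = 4). Of 10 genes of the loop, distal tubule and collecting duct, 1 was lower and 0 higher (median -0.22), with a summed level of 8600 to 9257 CPM in shNT and 7447 to 10415 CPM in shFOS, highest in replicate 1. *Slc12a3* (the thiazide-sensitive transporter) averaged 1777 ± 362 and 1202 ± 346 CPM, with 1720 CPM in shFOS replicate 1, and *Umod* 4862 ± 98.8 and 5701 ± 953 CPM (SD, n = 4). *Aqp2*, a collecting duct water channel named after its values were seen, was at 311.5, 241.4, 281.9 and 443.2 CPM in shNT and at 438.0, 349.9, 100.5 and 150.2 CPM in shFOS. Of 7 macrophage genes none passed an unadjusted p of 0.05 (median -0.22, summed 370 to 1048 CPM in shNT and 543 to 746 CPM in shFOS), with *Lyz2* at 230 ± 85.9 and 244 ± 70.2 CPM and *C1qa* at 117 ± 46.8 and 86.8 ± 11.5 CPM. Of 7 hepatocyte genes 2 were lower (median -0.39, summed 175 to 714 CPM in shNT and 176 to 378 CPM in shFOS), among them *Serpina1a*, at 317 CPM in its highest shNT kidney. *Alb* averaged 88.6 ± 80.7 and 91.3 ± 70.7 CPM (SD, n = 4). Of 8 mesothelial genes none passed (median -0.25, summed 315 to 383 CPM in shNT and 230 to 431 CPM in shFOS, highest in replicate 1), with *Gpm6a* at 117 ± 17.7 and 145 ± 38.9 CPM and *Msln* at 5.38 ± 4.50 and 2.30 ± 2.19 CPM.

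In liver the same genes showed little. *Nphs1* had 0 or 1 read per library and *Magi2* 3 to 10 reads, and both were removed by the filter on low counts, so 7 of the 9 were tested. None of the 7 passed an adjusted p of 0.05, as for all 13144 genes tested in edgeR (0% called), and their median log2 fold change was 0.13, against -0.01 over all genes. At an unadjusted p under 0.05, 1 of the 7 was higher, against 3.58% of genes tested. Over all liver genes 886 had an unadjusted p under 0.05 and DESeq2 called 37, none of them among the 7. That gene was *Synpo*, at 9.63, 6.58, 7.91 and 10.2 CPM in shNT livers 1 to 4 and 13.2, 11.8, 11.9 and 12.0 CPM in shFOS livers 1 to 4. Every shFOS liver was above every shNT liver, and replicate 1 was the highest (log2 fold change 0.51, SE 0.15, edgeR adjusted p = 0.714). The share of all liver genes that separated in this way was not counted. *Podxl* averaged 5.29 ± 1.69 and 6.70 ± 0.989 CPM, *Wt1* 2.28 ± 0.491 and 1.89 ± 0.183 CPM, *Ptpro* 1.20 ± 0.760 and 0.987 ± 0.259 CPM and *Plce1* 13.6 ± 2.39 and 14.5 ± 1.70 CPM in shNT and shFOS livers (SD, n = 4). *Cdkn1c* averaged 4.28 ± 1.36 and 4.70 ± 0.827 CPM and *Kirrel* 2.94 ± 0.640 and 3.42 ± 0.501 CPM, and in each of these 6 genes the groups overlapped. Without liver shNT replicate 4 the log2 fold change of *Podxl* went from 0.34 to 0.56 and that of *Cdkn1c* from 0.13 to 0.36, and none of the 7 passed in edgeR.

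Whether the shFOS effect differed between the tissues was tested in a fit of all 16 libraries, as the effect in liver minus the effect in kidney. None of the 9 genes passed, as for all 15421 genes tested in edgeR (0% called). At an unadjusted p under 0.05, 2 of the 9 differed, against 16.1% of genes (2482 genes), and DESeq2 called 343 genes and 0 of the 9. The 2 were *Wt1*, with a difference of -0.97 on the log2 scale (SE 0.33, edgeR adjusted p = 0.199), and *Plce1*, with -0.57 (SE 0.25, edgeR adjusted p = 0.272). Without kidney shFOS replicate 1 both passed, *Wt1* with a difference of -1.19 (edgeR adjusted p = 0.016) and *Plce1* with -0.77 (edgeR adjusted p = 0.0206). Each passed in only 1 of 22 alternatives. Genes outside the 9 also passed when a library was left out, and the last section gives their range. The share of all genes that passed without kidney shFOS replicate 1 is not given, so these 2 calls have no background to be read against. *Ptpro* had the largest estimate, -1.20, with an SE of 0.60 (edgeR adjusted p = 0.334), and *Kirrel* the smallest, -0.02 (SE 0.23). In liver *Ptpro* had only 2 to 37 reads per library, and its estimate ranged from -1.56 to -0.90 over the 22 alternatives. *Nphs1* and *Magi2* did not pass the filter in liver and entered this fit through kidney alone, so the test says little about them. Their SEs were 1.37 and 0.48, and for *Nphs1* no difference was detectable at the depth of the liver libraries. The 15421 genes also include others that did not pass the filter in both tissues, where 12727 passed.

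The levels of the 9 genes in both organs, on one scale of normalized CPM over the 16 libraries, checked the choice of the genes against an organ without podocytes. Of the 7 that passed the filter in both tissues, 6 were higher in kidney at an adjusted p under 0.05 in edgeR, against 32.8% of the 12727 such genes. For the same 6 every kidney library was above every liver library, against 18.7% of such genes. *Nphs1* and *Magi2* entered the fit through kidney alone and are given by their reads. *Nphs1* had 3833 reads over the 8 kidneys and 4 over the 8 livers, a ratio per counted read of 1132 (exact 95% interval 442 to 4158, counting error only). *Magi2* had 2205 and 45 reads, a ratio of 57.9 (43.1 to 79.6). The 6 were *Podxl* (log2 difference 4.50, SE 0.16, edgeR adjusted p = 4.88e-13), *Ptpro* (3.29, SE 0.31), *Cdkn1c* (2.80, SE 0.15), *Synpo* (2.06, SE 0.14), *Kirrel* (1.99, SE 0.12) and *Wt1* (1.79, SE 0.16). *Plce1* was the exception, at 9.23 ± 2.96 CPM in kidney and 19.9 ± 2.75 CPM in liver (SD, n = 8; log2 difference -1.14, SE 0.12, edgeR adjusted p = 3.96e-07). Without scaling for RNA composition the fold changes of all genes shifted by a median of 1.0 on the log2 scale, and *Plce1* then differed by -0.14 and did not pass (edgeR adjusted p = 0.231), while the 6 stayed higher in kidney.

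Per kilobase of exon sequence, a scale on which genes can be compared, the order in shNT kidneys was *Podxl* at 38.6 ± 4.85, *Cdkn1c* at 26.9 ± 5.22, *Synpo* at 6.77 ± 1.29, *Nphs1* at 3.40 ± 0.490 and *Kirrel* at 3.11 ± 0.376 CPM per kb (SD, n = 4). Then came *Ptpro* at 2.35 ± 0.339, *Wt1* at 1.82 ± 0.374, *Magi2* at 1.29 ± 0.193 and *Plce1* at 0.625 ± 0.0547 CPM per kb. Neighbours from *Nphs1* to *Magi2* had overlapping ranges over the 4 libraries, although within a library the higher gene of each pair was above the lower in all 4, except *Nphs1* over *Kirrel*, in 3. In shFOS kidneys *Ptpro*, at 4.43 ± 1.604 CPM per kb, stood above *Kirrel*, at 3.70 ± 0.373, in 3 of 4 libraries, and the other genes kept their order. The values above were normalized within kidney. On the one scale over 16 libraries, the highest of the 9 in liver was *Cdkn1c*, at 3.11 ± 0.747 CPM per kb (SD, n = 8). On that scale *Cdkn1c* stood at 21.9 ± 4.75 CPM per kb over the 8 kidneys. The lowest in liver was *Nphs1*, at 0.00625 ± 0.00673 CPM per kb.

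**Figure D5:**
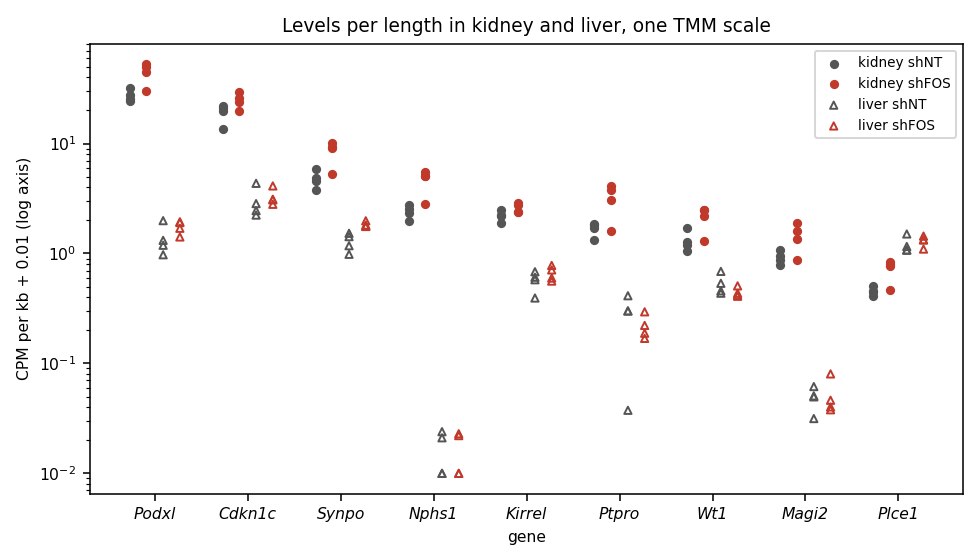
CPM per kilobase of exon sequence plus 0.01 (vertical log axis) of the 9 podocyte genes, ordered by kidney level, in each of the 16 libraries, with kidney as filled circles, liver as open triangles, shNT in grey and shFOS in red. All values are on one normalized scale over the 16 libraries. Kidney lies above liver for all genes except *Plce1*, and the liver points of *Nphs1* are at or near 0 reads.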

How the data were processed

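Total RNA from kidney and liver was sequenced. The authors trimmed the reads with Trimmomatic 0.39, aligned them to mm10 with HISAT2 2.2.1 and obtained one count table per library with HTSeq 0.12.4, unstranded; per the labels and methods the deposited values are raw counts. Unassigned reads (no feature 13.4% to 26.7%, ambiguous 1.84% to 2.64%) were left out. GENCODE M21 supplied positions and exon lengths for 98.2% of symbols; the authors' annotation can differ from it. Each tissue was fitted alone in edgeR 4.0.16 (R 4.3.3: filterByExpr, TMM, robust quasi-likelihood test, Benjamini-Hochberg over all genes, calls at 0.05), and comparisons across tissues used all 16 libraries. CPM were TMM-normalized within each tissue unless one scale is stated. The fit was tested on simulated counts.

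The 9 genes and all lists were chosen with earlier results of these data known. Named were the 9 genes, *Fos*, *Lmx1b*, the 2 genes with the smallest kidney p of each podocyte or paralog list, the most abundant and the smallest-p gene of each other list, and the 5 genes most like the 9. Some genes that this rule would name are not reported here. Alternatives were DESeq2 1.42.0, upper-quartile normalization, other filters, a replicate block, a GC content offset, one fit of 16 libraries and each library left out. The newer quasi-likelihood dispersion, leaving out shFOS 1 and shNT 4 together, and no composition scaling were added after the data were seen. No library of a group was a copy of another (smallest chi-square per degree of freedom 7.17).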

Additional observations from a re-analysis of the deposited data

Results flagged for a closer look

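In 34 groups of 4 libraries (each of the 9 podocyte genes in each tissue and treatment, without *Nphs1* in liver), 4 had 1 library far from the other 3 by Dixon's criterion, where chance flags about 1 in 20. In kidney this was shFOS replicate 1, low for *Nphs1* (25.6 CPM), *Synpo* (70.4 CPM) and *Plce1* (10.2 CPM). In liver it was shFOS replicate 1, high for *Synpo* (13.2 CPM, with the other 3 at 11.8, 11.9 and 12.0 CPM). The 3 kidney cases rest on 1 library and are not independent.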

How the results depend on the processing

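In kidney, calls among the 9 podocyte genes went from 0 to 7 with DESeq2, to 4 in the fit of all 16 libraries and to 8 without shFOS 1 and shNT 4, and ranged from 0 to 7 with 1 library left out. Genes called in all went from 0 to 2693 with DESeq2, 994 with 16 libraries, 3 with no filter on low counts and 5183 without those 2 libraries, and from 0 to 4126 with 1 library left out. In liver DESeq2 called 37 genes, and *Ptpro* ranged from -0.67 to 0.01 (without shNT replicate 3) with 1 library left out. For the difference between tissues DESeq2 called 343 genes, and leaving out 1 library gave 0 to 1246 genes and 0 to 2 of the 9. There *Kirrel* turned to 0.02 with upper-quartile normalization and ranged from -0.16 to 0.08 with 1 library left out, and *Cdkn1c* from -0.38 to 0.01 (without liver shNT replicate 4). The cause was not tested. Of 670 single-gene values 8 reversed. With the replicate block the kidney count stayed 0, with *Nphs1* at 0.91 (edgeR adjusted p = 0.147), and the block changed no other call. The numbers did not pair shNT with shFOS: same-numbered kidneys correlated at -0.17, 0.00, 0.12 and -0.15. Whether they pair kidney with liver was not settled: same-numbered libraries correlated at 0.12 to 0.40 in shNT and 0.04 to 0.16 in shFOS, and 6 of 8 kidneys correlated best with their own number. Depth limits *Nphs1*, *Magi2* and *Ptpro* in liver and *Lmx1b* in kidney.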
